A study of Sus scrofa with 12 samples.

Results

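The 4 MHC class II probes of a spotted pig immune cDNA array, named MHC-DQ (AP2), MHC-DY (AP5), MHC-DR (AP3) and MHC-DM (AP1), were examined in blood mononuclear cells of Yorkshire boars. They were taken by these names from the array's own name column and are 4 of its 188 gene probes, printed as 32 of 1680 spots. Boars of 3 SLA-DRB1 genotypes were compared, with 2 animals in each: allele 050502, allele 070701, and a potentially new allele, called New here. SLA-DRB1 encodes the DR beta chain in the pig, so the groups differ by design in 1 of the class II genes. The animals' alleles at the other class II genes are not stated in the labels. Cells came from untreated venous blood separated on a density gradient, and their RNA was amplified before labelling. Each array carried cells of 2 genotypes, one in the red dye and one in the green. Each genotype pair had 2 hybridised pairs of animals, called A and B, and each hybridised pair was run on 2 arrays with the dyes exchanged, giving 12 arrays (A1, A2, B1 and B2 for each genotype pair).

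MHC class II molecules are pairs of an alpha and a beta chain that display peptides from engulfed proteins to CD4 T cells. In blood they are carried mainly by B cells, monocytes and dendritic cells, and in the pig also by some T cells. DR and DQ sit on the cell surface and present peptides, while DM stays inside the cell and helps exchange the invariant chain fragment for a peptide. DY is a class II molecule described in ruminants. In the RefSeq annotation of the pig assembly Sscrofa11.1, 12 genes with SLA-D symbols lie on chromosome 7, of which 8 are annotated as protein coding and 4 as pseudogenes. SLA-DRA, SLA-DRB1, SLA-DQA1 and SLA-DQB1 follow each other in that order, then come SLA-DYB, annotated as a pseudogene, and, farther on, SLA-DMB and SLA-DMA. The probes' sequences, and the chain that each detects, are not stated in the labels or files used here, so a probe may respond to more than 1 of these genes and no probe is assigned to a gene.

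All 4 probes were brighter than the negative controls. Their mean log2 intensities over all arrays were 13.51 (MHC-DY), 13.42 (MHC-DR), 12.95 (MHC-DQ) and 12.88 (MHC-DM), and since brightness depends on the probe they are not compared with each other. The negative-control DNAs stood at 9.18 for VapA and 9.98 for plasmid pACYC177. Each of the 4 was above background in both channels of all 12 arrays, none of their spots was marked as missing, and no spot had more than 15% of its pixels at the scanner's ceiling. The filter on dim probes therefore removed no member, and 185 of 188 probes were tested. Of the markers of the expected mononuclear cells, TCRb, a T cell receptor chain, had a mean of 13.15. In all, 3 of 14 T cell probes, 3 of 7 monocyte and dendritic cell probes and 2 of 5 tested B cell probes were brighter than both negative controls. CD14, the monocyte receptor for bacterial lipopolysaccharide, was not among them. The 12 arrays had median intensities of 382 to 2004 (red) and 498 to 2078.5 (green).

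MHC-DQ signal was higher in 050502 cells than in 070701 cells on every array. Its mean scanner intensity, before any correction, was 19289, 11739.75, 32744 and 7794 in 050502 on arrays A1, A2, B1 and B2, against 7999.5, 7528, 7321 and 3936 in 070701. The normalized log2 ratio of 050502 over 070701 was 1.40, 1.13, 1.55 and 1.12 on the same arrays, and all 32 spots were positive, the lowest at 0.95. All 4 arrays thus had the same direction, as they did for 29.2% of all tested probes. The mean ratio was 1.30 ± 0.05 (SD, n = 2 hybridised pairs), a 2.46-fold difference (95% interval 1.06 to 1.54, limma adjusted p = 0.00639). Only 1.08% of the 185 tested probes passed in this comparison, which is MHC-DQ and MHC-DY and no other. In a mixed cell sample, more cells of a type and more RNA per cell cannot be told apart, and this holds for every ratio given here. For the class II probes, unequal binding of the genotypes' alleles to a probe cannot be told apart from either, as probe sequences are not stated.

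Between 070701 and New cells MHC-DQ was lower in 070701 on every array. Mean intensity was 8036, 6110.1, 6030 and 6458 in 070701 on arrays A1, A2, B1 and B2, against 31614, 16253, 16666 and 13303 in New. The log2 ratios of 070701 over New were -1.59, -1.39, -1.43 and -1.08, with all 32 spots negative and the highest at -0.77. Their mean was -1.37 ± 0.16 (SD, n = 2), so that 070701 fell 2.59-fold below New (interval -1.61 to -1.13, limma adjusted p = 0.0059). Again 1.08% of tested probes passed, MHC-DQ and MHC-DY alone. Both comparisons rest on the same 2 boars of genotype 070701 and are not independent of each other. The p-values treat the 6 hybridised pairs as independent although the boars recur among them.

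Between 050502 and New cells the MHC-DQ arrays were not of one direction. Intensity was 6304, 4660.1, 6127 and 3109 in 050502 on arrays A1, A2, B1 and B2, against 10825.5, 3872, 11045 and 4791 in New. The normalized log2 ratios of 050502 over New were -0.37, -0.12, 0.23 and -1.15, so on arrays A2 and B1 the normalized direction was opposite to that of the raw intensities. Arrays B1 and B2 carry the same RNA extracts with exchanged dyes, and all 8 spots of B1 were positive while all 8 of B2 were negative. The mean was -0.35 ± 0.15 (SD, n = 2), with an interval of -0.59 to -0.11 (limma adjusted p = 0.56). No probe passed here (0% of 185 in limma), while 15 had an unadjusted p under 0.05, MHC-DQ and MHC-DR among them. Across all probes hybridised pairs A and B opposed each other (r = -0.54, a description of the arrays, since probes are not replicates). The class II ratios of this comparison are therefore given as labelled and also with the sign of pair A turned, which gave -0.11 for MHC-DQ. Every class II probe, however, was negative in both pairs. Pair A and then pair B gave -0.24 and -0.46 (MHC-DQ) and -0.20 and -0.31 (MHC-DR). They gave -0.14 and -0.34 for MHC-DM, and -0.06 and -0.10 for MHC-DY. Turning pair A sets pairs of the same sign against each other, which makes the turned class II ratios small. As labelled, MHC-DQ was at -0.53 with arrays centred on their medians in place of loess and at -0.61 with the deposited values.

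**Figure D1:**
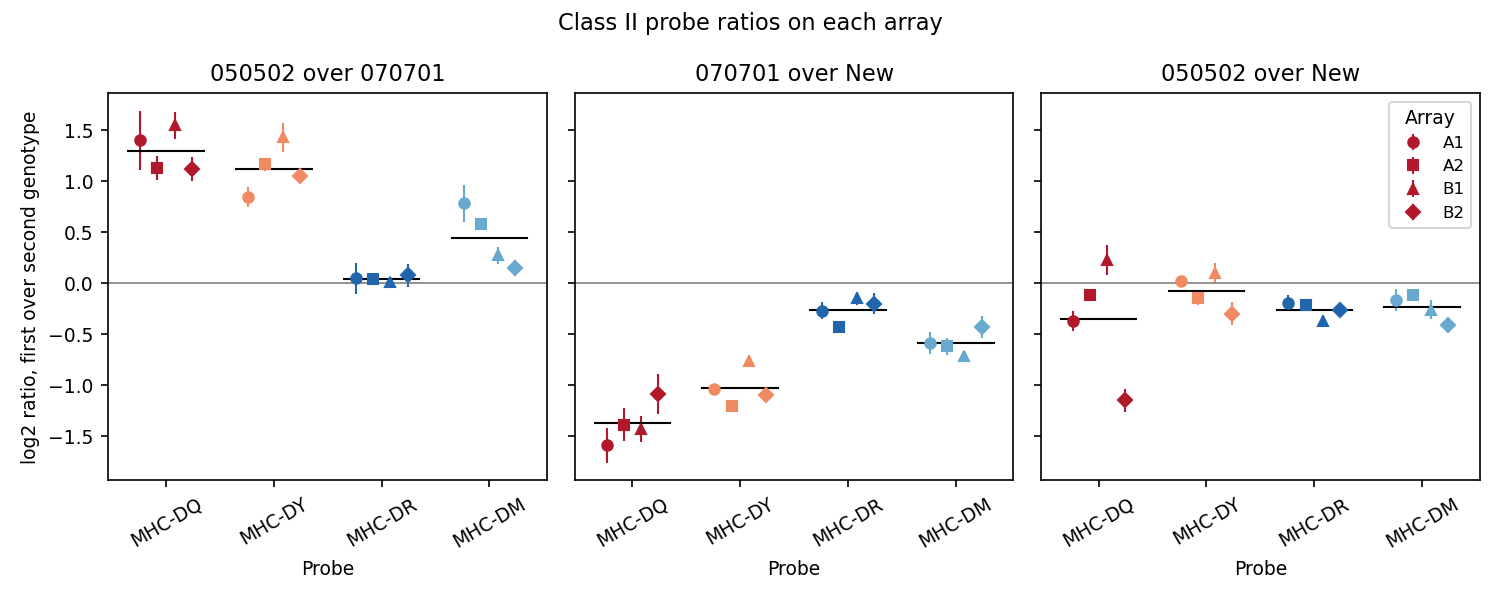
Normalized log2 ratio (first over second genotype) of the 4 class II probes on each array, in 3 panels for the 3 genotype pairs. Each point is an array (marker shape: A1, A2, B1, B2), its bar is the SD over 8 spots, and the black line is the mean of 4 arrays. MHC-DQ and MHC-DY lie between 0.85 and 1.55 for 050502 over 070701 and between -1.59 and -0.76 for 070701 over New, while the MHC-DQ arrays of 050502 over New spread from -1.15 to 0.23.

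MHC-DY had the same directions as MHC-DQ in both comparisons with 070701. In 050502 its intensity was 12981, 16679.6, 15696 and 22790.25 on arrays A1, A2, B1 and B2, against 7562, 10646, 3786 and 11971 in 070701. The log2 ratios of 050502 over 070701 were 0.85, 1.17, 1.43 and 1.05, with 32 of 32 spots positive. The mean of 1.12 ± 0.16 (SD, n = 2) is a 2.18-fold difference, with an interval of 0.89 to 1.35 (limma adjusted p = 0.00639). MHC-DY was higher in 050502 on all 4 arrays, and so was MHC-DQ.

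Against New, MHC-DY in 070701 had intensities of 8382, 11428.5, 6766 and 10992 on arrays A1, A2, B1 and B2, against 21926, 31562, 11772 and 25109 in New. The log2 ratios of 070701 over New were -1.03, -1.21, -0.76 and -1.09, with 32 of 32 spots negative. The mean was -1.02 ± 0.14 (SD, n = 2), a 2.03-fold fall in 070701 (interval -1.25 to -0.79, limma adjusted p = 0.00988). Between 050502 and New the arrays gave 0.02, -0.15, 0.10 and -0.30, which lie on both sides of 0. Their mean was -0.08 ± 0.03 (SD, n = 2) and -0.02 with pair A turned, and the interval was -0.31 to 0.15 (limma adjusted p = 0.70). Median centring gave -0.38 and the deposited values gave -0.47, both outside that interval and neither passing (limma adjusted p = 0.50 and 0.42).

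MHC-DM, the peptide-loading molecule, had the same signs as MHC-DQ at smaller size. Its log2 ratios of 050502 over 070701 were 0.78 and 0.58 on arrays A1 and A2 and 0.27 and 0.15 on arrays B1 and B2, so hybridised pair A gave more than pair B. The mean of 0.44 ± 0.33 (SD, n = 2, interval 0.11 to 0.78) did not pass (limma adjusted p = 0.44). For 070701 over New the arrays lay closer together, at -0.59, -0.62, -0.71 and -0.43, and all 32 spots were negative. Their mean was -0.59 ± 0.02 (SD, n = 2, interval -0.92 to -0.25, limma adjusted p = 0.20). A model that places the 3 genotypes on a common scale, and so uses every hybridised pair for every comparison, gave -0.62 and let MHC-DM pass (limma adjusted p = 0.0319), with 2.70% of probes passing. That call ended when pair A of 050502 vs New was turned in the same model (-0.57, limma adjusted p = 0.067). For 050502 over New, MHC-DM was at -0.16, -0.11, -0.26 and -0.41, with a mean of -0.24 ± 0.14 (SD, n = 2, interval -0.57 to 0.10, limma adjusted p = 0.59) and -0.10 with pair A turned. It was -0.47 with median centring and -0.56 with the deposited values.

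MHC-DR, named after the molecule whose beta chain gene defined the groups, was at nearly the same level in 050502 and 070701 cells. Its log2 ratios of 050502 over 070701 were 0.05, 0.05, 0.01 and 0.08 on arrays A1, A2, B1 and B2, and 24 of 32 spots were positive. The mean of 0.04 ± 0.003 (SD, n = 2) had an interval of -0.15 to 0.24 (limma adjusted p = 0.81), and it was -0.02 with arrays centred on their medians. The interval stays below the lower bound for MHC-DQ or MHC-DY in the same comparison. In 070701 the intensity was 13397, 21658, 9910 and 12679 on arrays A1, A2, B1 and B2, against 21988, 38753, 11769.75 and 15609 in New. The log2 ratios of 070701 over New were -0.27, -0.43, -0.15 and -0.20, with all 32 spots negative, and for 050502 over New they were -0.19, -0.21, -0.37 and -0.26, again with all 32 negative. MHC-DR thus had 4 of 4 arrays below New in both comparisons, where 29.7% and 9.19% of all tested probes had their 4 arrays in a single direction. The means were -0.26 ± 0.12 and -0.26 ± 0.08 (SD, n = 2 each), and neither passed (limma adjusted p = 0.39 and 0.56). With pair A turned the second became -0.06. Both were larger without loess: 070701 over New was at -0.52 with median centring and -0.65 with the deposited values, and 050502 over New at -0.52 and -0.62, and none of these passed (limma adjusted p = 0.41, 0.33, 0.47 and 0.40).

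**Figure D2:**
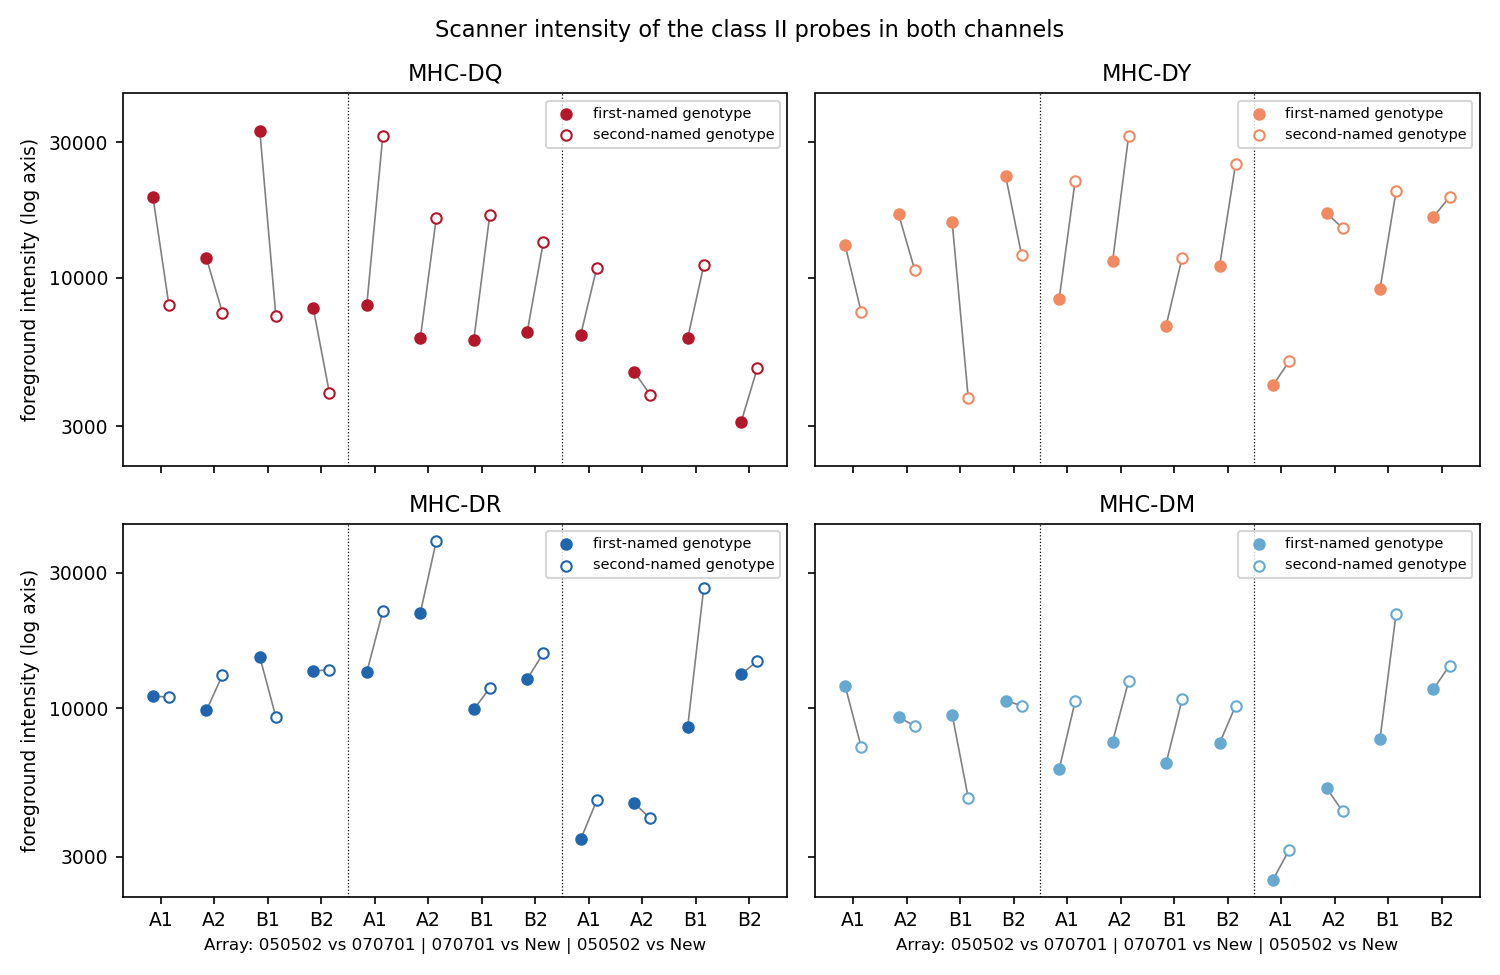
Mean foreground intensity (arbitrary scanner units, log axis, before background correction and normalization) of each class II probe in both channels of the 12 arrays, which run from left to right as 050502 vs 070701, 070701 vs New and 050502 vs New. Filled points are the first-named genotype and open points the second. For MHC-DQ and MHC-DY the filled points are above the open ones on the first 4 arrays and below them on the next 4.

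Within an array, the ratios of the 4 probes differed from each other in a repeated way. In 050502 over 070701, the log2 ratio of MHC-DQ exceeded that of MHC-DR by 1.253 on average, with a range over 4 arrays of 1.04 to 1.54, and that of MHC-DM by 0.85, with a range of 0.55 to 1.27. MHC-DY exceeded MHC-DR by 1.08 (0.80 to 1.42). In 070701 over New the same 3 differences of log2 ratios were -1.11 (-1.32 to -0.88), -0.78 (-0.999 to -0.66) and -0.76 (-0.89 to -0.61). In both comparisons all 4 arrays had the same sign for each of these differences, and MHC-DM lay between MHC-DR and MHC-DQ on every array. In 050502 over New the difference between MHC-DQ and MHC-DR had 2 positive and 2 negative arrays. MHC-DQ and MHC-DY were not separated consistently: their difference in 050502 over 070701 was 0.18 with 3 of 4 arrays positive, and in 070701 over New -0.35 with 3 of 4 negative. These differences between probes were not tested, because they were picked from values already known.

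By size of log2 ratio MHC-DQ ranked 4th and MHC-DY 5th of 185 in 050502 over 070701, where MHC-DM ranked 20th and MHC-DR 138th. In 070701 over New MHC-DQ ranked 2nd, MHC-DY 4th, MHC-DM 6th and MHC-DR 26th. By unadjusted limma p, MHC-DQ ranked 1st and MHC-DY 2nd in both. The median absolute log2 ratio of the 185 probes was 0.09 for 050502 over 070701, 0.08 for 070701 over New and 0.10 for 050502 over New, and their median SD between hybridised pairs was 0.09, 0.06 and 0.15. In 050502 over New the members ranked 17th (MHC-DQ), 31st (MHC-DR), 36th (MHC-DM) and 116th (MHC-DY), and with pair A turned 93rd, 135th, 102nd and 174th in the same order of probes.

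**Figure D3:**
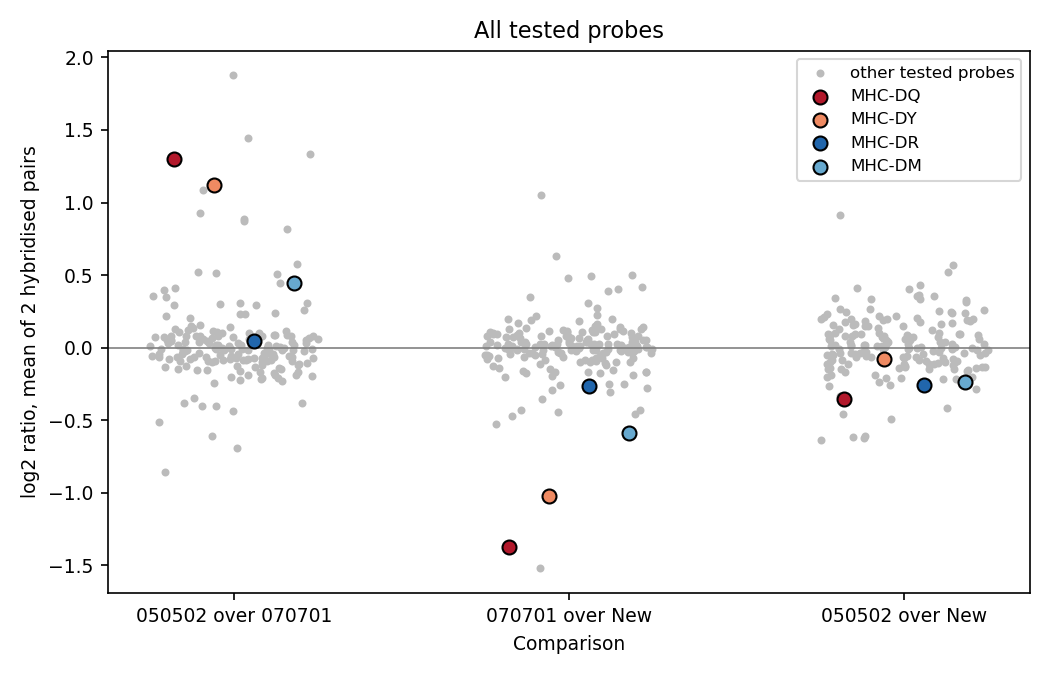
Mean log2 ratio of 2 hybridised pairs for all 185 tested probes (grey, spread sideways at random) and the 4 class II probes (coloured) in each comparison. MHC-DQ and MHC-DY are at 1.30 and 1.12 for 050502 over 070701 and at -1.37 and -1.02 for 070701 over New, among the outermost points, and at -0.35 and -0.08 for 050502 over New.

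The genotypes were then set in order for each probe with the common-scale model, as a description. For MHC-DQ the log2 ratio was 1.21 for 050502 over 070701 (interval 0.99 to 1.42), -1.46 for 070701 over New (-1.68 to -1.25) and -0.26 for 050502 over New (-0.47 to -0.05). For MHC-DY the same ratios were 1.06 (0.88 to 1.24), -1.08 (-1.26 to -0.90) and -0.02 (-0.20 to 0.16). For MHC-DQ 070701 was lowest, and its neighbours New and 050502 did not differ past the threshold (limma adjusted p = 0.40). For MHC-DY the neighbours New and 050502 were also not separated (limma adjusted p = 0.91), and 070701 was apart from both. MHC-DM also had 070701 lowest, with ratios of 0.41 for 050502 over 070701 (limma adjusted p = 0.16), which did not pass, and -0.62 for 070701 over New, which did. For MHC-DR New was highest, and 050502 and 070701 lay together at 0.03 (interval -0.10 to 0.17), and 070701 over New was at -0.28 (-0.41 to -0.14, limma adjusted p = 0.064). With pair A of 050502 vs New turned, the model gave 1.29, -1.38 and -0.10 for MHC-DQ and 1.08, -1.06 and 0.02 for MHC-DY in the same order of comparisons, so 070701 stayed apart in both (limma adjusted p = 0.00223 and 0.00215 for MHC-DQ, 6.457e-04 and 7.276e-04 for MHC-DY). The turned ratios were 0.46, -0.57 and -0.11 for MHC-DM and 0.10, -0.21 and -0.11 for MHC-DR, none of which passed. New and 050502 did not differ past the threshold for any member with either direction, and their order for MHC-DY changed with it. As labelled, 050502 over New was at -0.25 for MHC-DR (interval -0.38 to -0.11, limma adjusted p = 0.40). That interval and the one for MHC-DQ lay wholly on the negative side, but intervals are not corrected for the number of probes.

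**Figure D4:**
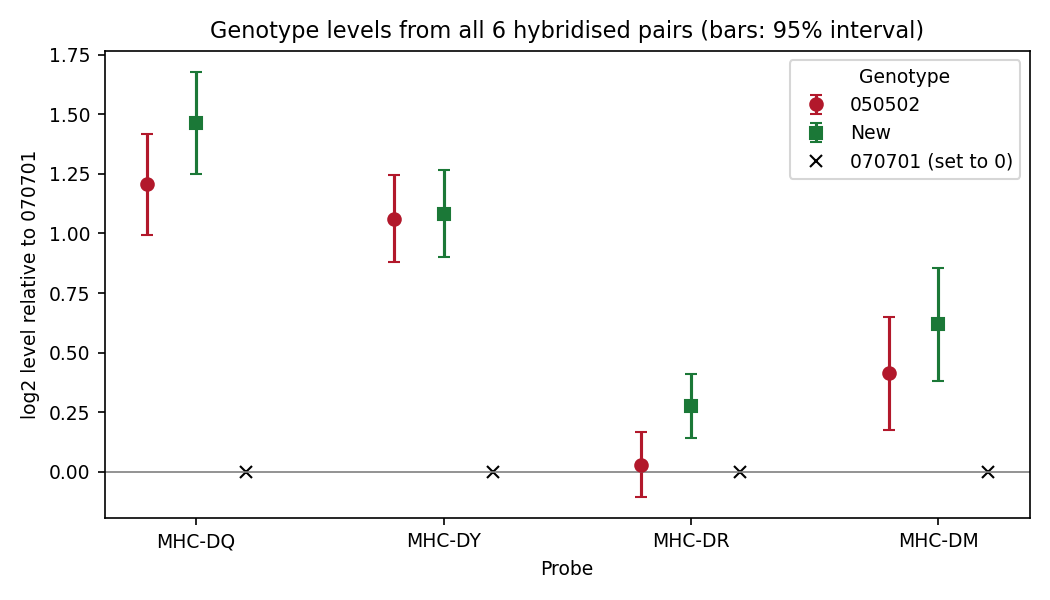
Log2 level of each class II probe in 050502 (circles) and New (squares) relative to 070701 (crosses, set to 0), from the model over all 6 hybridised pairs, with 95% intervals. For MHC-DQ and MHC-DY both genotypes stand more than 1 log2 unit above 070701, and for MHC-DR the interval of 050502 includes 0.

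Channel levels gave the same picture for MHC-DY and a less clear one for MHC-DQ. After scaling average intensity between arrays, MHC-DY had log2 intensities of 13.92, 13.77, 14.02 and 13.38 in 050502 over its 4 hybridised pairs and 13.99, 13.98, 14.08 and 13.47 in New, against 12.92, 12.53, 12.87 and 13.05 in 070701. The 070701 values lay below those of the other genotypes, but the 4 values of a genotype come from 2 boars. The share of all tested probes with levels set apart in this way was not computed. MHC-DQ had 13.92, 13.31, 13.41 and 11.67 in 050502 and 13.72, 13.73, 13.66 and 12.13 in New, against 12.66, 11.98, 12.23 and 12.48 in 070701, with the lowest value of 050502 and of New both in hybridised pair B of 050502 vs New. Those 2 values brought the ranges into overlap, and both genotypes were low there together. MHC-DR and MHC-DM levels overlapped between all genotypes, with ranges of 12.99 to 13.45 and 12.75 to 13.45 in 050502, 13.19 to 14.09 and 12.67 to 13.30 in New, and 13.29 to 13.74 and 12.06 to 12.77 in 070701.

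The loop of 3 genotypes allowed each ratio of 050502 over New to be set against the sum of the ratios 050502 over 070701 and 070701 over New. The sum was -0.07 for MHC-DQ, where -0.35 was measured, and 0.10 for MHC-DY, where -0.08 was measured. For MHC-DR the sum was -0.22 and the measured ratio -0.26, and for MHC-DM -0.14 and -0.24. The gaps were 0.28, 0.18, 0.04 and 0.09 log2 units, against a median absolute gap of 0.11 and a highest of 1.69 over the 185 probes. With pair A of 050502 vs New turned they were 0.04, 0.12, -0.16 and -0.04, so turning brought MHC-DQ, MHC-DY and MHC-DM nearer to 0 and took MHC-DR farther from it. Turning pair A shrinks the measured ratio whenever pairs A and B share a sign, as they did for each of these probes. These changes therefore follow in part from arithmetic and cannot decide the direction of pair A.

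MHC-DQ also behaved differently from the other class II probes between the arrays of an exchange. Its mean log2 foreground intensity over both channels was higher on the first array than on the second in all 6 exchanges, by 0.77 on average (0.11 to 1.43). MHC-DY was lower on the first array in all 6, by -0.85 on average (-1.80 to -0.36), as was the median of all spots (-0.67 on average, -0.90 to -0.51). MHC-DR was brighter on the first array in 1 exchange and MHC-DM in 2. Of 185 probes 5 were brighter on every first array, which besides MHC-DQ were MIF, IgM, TCRg and CD3d. These were named because of their values. The unturned red over green ratio, a dye term that the exchange cancels in the mean, was -0.09 for MHC-DQ over the 6 exchanges with a range of -0.69 to 0.17, and -0.12 for MHC-DY with a range of -0.20 to 0.09. For MHC-DR it stayed between -0.03 and 0.08. The value of -0.69 came from pair B of 050502 vs New, the exchange whose arrays had opposite signs.

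The probes most like MHC-DQ over the 6 hybridised pairs were found by cosine similarity, which equals 1 for proportional ratios and does not depend on which genotype is on top. The 49 tested probes brighter than both negative controls were ranked, as a description, and the pairs share animals. MHC-DY came first for MHC-DQ at 0.986, followed by CD1a,b,d (0.947), MHC-DM (0.936), SOD (0.897) and Granzyme (0.894), and MHC-DR was 9th of 48 at 0.706. For MHC-DY the first 5 were MHC-DQ, Granzyme (0.920), SOD (0.906), NFKB1 probe TCR27 (0.904) and CD1a,b,d (0.889). CD1 molecules present lipids, granzymes are proteases of cytotoxic granules, SOD removes superoxide and NFKB1 is a subunit of the NF-kB transcription factors. CD1a,b,d had log2 ratios of 0.55 and 0.24 for pairs A and B of 050502 over 070701, of -0.51 and -0.43 for 070701 over New, and of -0.22 and -0.30 for 050502 over New. Its cosine with MHC-DM was 0.990, the highest of any probe for that member. Outside the class II members, none of these probes passed with 1 coefficient per genotype pair. In the common-scale model CD1a,b,d passed for 070701 over New at -0.53 (limma adjusted p = 0.029), a call that was absent with pair A of 050502 vs New turned.

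The probes least like MHC-DQ were FcRN (-0.931) and TCRa (-0.908), and those least like MHC-DY were TCRa (-0.931), Casp1 (-0.905) and FcRN (-0.900). FcRN protects IgG from breakdown, TCRa is the T cell receptor alpha chain and Casp1 activates IL-1 beta. FcRN had ratios of -0.15 and -0.26 for pairs A and B of 050502 over 070701, and of 0.55 and 0.42 for 070701 over New, where it did not pass (limma adjusted p = 0.086) except in the common-scale model (0.41, limma adjusted p = 0.032). Casp1 was at 1.05 ± 0.09 for 070701 over New (SD, n = 2, limma adjusted p = 0.19). TCRa had -0.36 and -0.86 for 050502 over 070701 and 0.62 and 0.37 for 070701 over New.

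**Figure D5:**
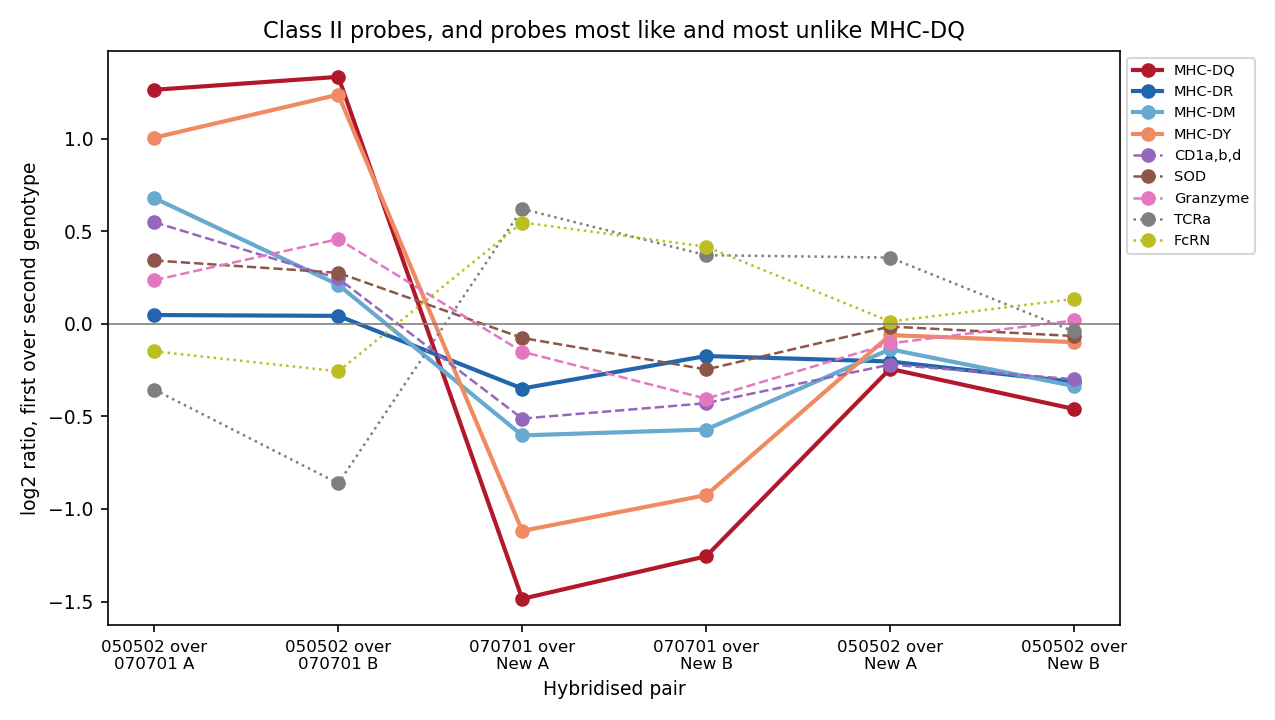
Log2 ratio (first over second genotype) in each of the 6 hybridised pairs for the class II probes (thick lines), the bright probes most like MHC-DQ (dashed) and those least like it (dotted). CD1a,b,d runs with MHC-DM, and FcRN and TCRa run opposite to MHC-DQ in the first 4 pairs.

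Of the genes that regulate, assist or receive class II presentation, 10 were on the array, and no limma test passed for them in any comparison as labelled. The class II transactivator, the RFX factors, the invariant chain and the cathepsins were not among the probes' names. The interferon gamma cytokine IFNg, a known inducer of class II genes, was at -0.02 for 050502 over 070701 and -0.04 for 070701 over New, and its receptor IFNgR at -0.02 and -0.09 in the same comparisons. IRF1, a transcription factor induced by interferon, was at -0.12 and 0.01. The costimulators of antigen-presenting cells had ratios of 0.06 and 0.12 for CD80, -0.07 and 0.03 for CD86, and 0.12 and 0.002 for CD40, and the T cell side had -0.07 and 0.02 for CD40L and -0.10 and 0.02 for CD4. IL10, a cytokine that lowers class II display on monocytes, was at 0.51 and 0.02. In 050502 over New the 10 ratios ran from -0.11 (CD80) to 0.24 (IFNg) as labelled and from -0.08 (CD40) to 0.50 (IL10) with pair A turned, where IL10 passed (limma adjusted p = 0.044). As labelled, IL10 was at 0.04 in that comparison, with an SD of 0.71 between hybridised pairs. In 050502 over 070701, 3 of 10 were positive with a median of -0.04, against -0.004 over all probes. In 070701 over New, 8 of 10 were positive with a median of 0.02, against 0.01 over all probes. At an unadjusted p under 0.05 the list had 0, 0 and 1 genes in the 3 comparisons in order, the last being 050502 over New. Only 1 of these 10 probes was brighter than both negative controls. IFNg (mean log2 intensity 8.45), CD4 (8.57), CD86 (8.62), CD40L (8.71), IFNgR (8.88), CD40 (9.05) and IRF1 (9.11) were dimmer than both. CD80 (9.26) and IL10 (9.57) were dimmer than pACYC177 (9.98). A ratio near 0 from so dim a probe does not show that its gene was unchanged.

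Markers of the cells that carry class II were read beside these ratios. Of 5 tested B cell probes 2 were positive in 050502 over 070701 (median -0.09), 0 in 070701 over New (median -0.26) and 0 in 050502 over New (median -0.62), and none passed (0 in limma, also 0 at an unadjusted p under 0.05). IgM, the antibody chain of early B cell responses, had ratios of 0.52 ± 0.72, -0.53 ± 0.05 and -0.62 ± 0.40 (SD, n = 2 each), with the signs of MHC-DQ in each comparison as labelled. In 050502 over 070701, 3 of the 5 B cell probes had the sign opposite to MHC-DQ, the lowest at -0.38. The B cell probes brighter than both negative controls were among these. The IgM probe was dimmer than both negative controls, with a mean log2 intensity of 8.36. Its arrays A1, A2, B1 and B2 of 050502 over 070701 gave 1.85, 0.20, 0.02 and 0.01. CD72 was at 0.08, -0.26 and -0.21 and IgG1 at -0.24, -0.25 and -0.62. With pair A turned, 050502 over New had 1 of 5 positive, IgM at 0.28, and a median of -0.39. The summed B cell log2 intensity ranged from 11.71 to 12.11 in 050502 and from 12.19 to 12.52 in New, against 12.02 to 12.30 in 070701. Monocyte and dendritic cell probes had 6 of 7 positive in 050502 over 070701 (median 0.24), 3 of 7 in 070701 over New (median -0.004) and 3 of 7 in 050502 over New (median -0.03), and none passed (0 in limma, 1 at an unadjusted p under 0.05 in each comparison). CD14 was at 0.26, 0.12 and 0.15. Granzyme, the only natural killer cell probe, was at 0.35, -0.28 and -0.04, and its unadjusted p was under 0.05 in the first 2 comparisons. Granzyme passed in no comparison (limma adjusted p = 0.44, 0.53 and 0.88). Its log2 intensity ranged from 11.26 to 11.98 in 050502 and from 11.37 to 11.96 in New, against 11.15 to 11.32 in 070701. With pair A turned, CD14 was at 0.51 and Granzyme at 0.06 in 050502 over New, and TLR2, a receptor for bacterial lipopeptides, passed at 1.43 (limma adjusted p = 0.044). As labelled, TLR2 was at -0.11 ± 2.02 there (SD, n = 2, limma adjusted p = 0.96), from -1.54 in pair A and 1.32 in pair B. TLR2 was at 0.87 for 050502 over 070701 and 0.39 for 070701 over New, and passed in neither. The summed log2 intensity of the monocyte and dendritic cell probes ranged from 13.48 to 14.09 in 050502 and from 13.42 to 13.80 in New, against 13.47 to 13.67 in 070701. The summed B cell range and the summed monocyte and dendritic cell range of 070701 overlapped those of 050502 and of New. The summed B cell range of 050502 lay below that of New, and the Granzyme range of 070701 lay below that of New but overlapped that of 050502. The share of all tested probes with ranges set apart in this way was not computed. CD14 (mean log2 intensity 9.42), CD72 (9.25) and IgM were dimmer than the plasmid control pACYC177 (9.98), and IgA was too dim to be tested. IgG1 (10.01), TLR2 (11.66) and Granzyme (11.45) were brighter than that control. The part of these cells in the class II ratios was not tested.

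T cell probes had 13 of 14 negative ratios in 050502 over 070701 (median -0.14, against -0.004 over all probes). In 070701 over New 10 of 14 were positive (median 0.02, against 0.01 over all probes). None passed (0 in limma, 2 and 1 at an unadjusted p under 0.05). Only 3 of the 14 were brighter than both negative controls, and CD28 was listed with probes AP11 and RG12. The summed T cell log2 intensity ranged from 13.99 to 14.47 in 050502 and from 13.97 to 14.46 in New, against 14.17 to 14.71 in 070701. The class I probe MHC-I was at -0.05 ± 0.03 in 050502 over 070701, -0.18 ± 0.27 in 070701 over New and 0.10 ± 0.37 in 050502 over New (SD, n = 2 each), or -0.26 there with pair A turned, and 0 of 6 class I and peptide-processing probes passed in limma in any comparison. At an unadjusted p under 0.05 there was 1, LMP2, a proteasome subunit, at -0.40 ± 0.13 in 050502 over 070701. The medians of these 6 were -0.07, -0.05 and -0.11, the last being -0.23 with pair A turned.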

How the data were processed

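RNA of blood mononuclear cells was hybridised to 12 two-colour spotted arrays. The deposited intensity values are foreground and local background medians read at 635 and 532 nm with GenePix Pro 6.0.1.25, unnormalized, per the file headers. Saturation is deposited as the percent of a spot's pixels at the scanner's ceiling. The authors' deposited value table holds log2 ratios of red over green. They matched the scanner files' log ratio to 0.001, their column medians ran from -0.69 to 0.60, and they served as an alternative. The dye of each genotype was taken from the labels.

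Medians were corrected with limma's normexp (offset 50) and normalized by global loess, with control and not-found spots at weight 0. The mean over a probe's spots, signed as first over second genotype, was averaged over both arrays of an exchange. Probes entered the test when 50% or more of their spots exceeded background by 2 background SD in a channel on at least 6 arrays. limma 3.58.1 under R 4.3.3 fitted the 6 values by lmFit and eBayes (3 residual and 1.85 prior degrees of freedom), 1 coefficient per genotype pair, Benjamini-Hochberg over 185 probes, threshold 0.05, two-sided. Animals were not named in the labels, so no animal term was fitted, and the number of arrays limits the precision. The common-scale model replaced the 3 coefficients by 2 genotype differences. Channel levels were taken after Aquantile scaling. The fit was also run on simulated data with independent pairs, which lack the boars shared among the real pairs. The members, lists and tests were chosen with earlier results of these data known. Named probes were the members, the 5 most and 3 least similar bright probes, the class II pathway list, and up to 4 per marker list, and a probe that the rule names is not reported here. Alternatives covered normalization, background, spot summary, single arrays of an exchange, filters, model, scan day, a turned pair and left-out pairs. Probe sequences were not used here.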

Additional observations from a re-analysis of the deposited data

Results flagged for a closer look

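Array ratios of each probe in each comparison, and channel levels in each genotype, made 24 groups of 4 values that were checked for 1 value far from the others. In such a check chance marks about 1 group in 20 when the 4 values are independent, which these were not. Arrays of an exchange share their RNA extracts, and the channel levels of a genotype come from recurring boars. The MHC-DQ log2 intensity in New was 12.13 in hybridised pair B of 050502 vs New, while its other values lay between 13.66 and 13.73. The gap was 0.952 of the range. The MHC-DY log2 intensity in New was 13.47 in the same hybridised pair, while its other values lay between 13.98 and 14.08, a gap of 0.835 of the range. In both cases the 050502 channel of that pair was also the lowest of its genotype, at 11.67 for MHC-DQ and 13.38 for MHC-DY. The log2 ratios on arrays B1 and B2 of that pair had opposite signs, at 0.23 and -1.15 for MHC-DQ and 0.10 and -0.30 for MHC-DY.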

How the results depend on the processing

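MHC-DQ and MHC-DY kept their directions in both comparisons with 070701 under all alternatives run. With pairs left out, MHC-DQ lay between 1.26 and 1.33 for 050502 over 070701 and between -1.49 and -1.26 for 070701 over New, and MHC-DY between 1.01 and 1.24 and between -1.12 and -0.93. Leaving out pair A or B of a comparison ended its calls (limma adjusted p = 0.0748 and 0.117 for both probes, then 0.167 and 0.0901 for MHC-DQ and 0.262 and 0.133 for MHC-DY), since 1 pair remained, assumed to vary like the others. Counts of passing probes then ran from 0 to 3, 0 to 3, and 0 to 2 for 050502 over New. Calls also ended, with the cause not tested, for MHC-DQ on the second arrays alone (1.12 and -1.23) and for MHC-DY on the first arrays alone (1.14 and -0.89). For 050502 over 070701 the deposited values ended those of MHC-DQ (1.19) and MHC-DY (1.02), and median centring that of MHC-DY (1.06). For 070701 over New the deposited values ended that of MHC-DY (-1.35).

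Passing counts for 050502 over 070701, in place of 2, were 1 with median centring, 1 on first and 1 on second arrays, 0 with deposited values (limma), 6 with scan day as a random block and 4 with pair A of 050502 vs New turned. For 070701 over New they were 1 on first arrays, 1 on second arrays, 1 with deposited values, 5 in the common-scale model and 9 with scan day, and for 050502 over New 4 with the pair turned, in place of 0. The scan-day fit counts arrays of an exchange as replicates. In it MHC-DM passed at 0.45 and -0.62, and MHC-DR at -0.26 for 070701 over New. The common-scale model gave -0.62 for MHC-DM. With pair A of 050502 vs New turned in that model, an alternative chosen after seeing the data, 17 probes passed for 050502 over 070701, 4 for 070701 over New and 11 for 050502 over New, and MHC-DY in 050502 over New was 0.020. MHC-DR in 050502 over 070701 was -0.016 with median centring and -0.035 with deposited values, and MHC-DY in 050502 over New was 0.062 on first arrays. In the only scan day shared by 2 genotype pairs, MHC-DQ was 1.26 and -1.26 and MHC-DY 1.01 and -0.93. With the pair letter as a replicate block, MHC-DQ kept 1.30 (limma adjusted p = 0.0102) and -1.37 (0.00785) and no member's call changed. The letters' deviations correlated across probes at 0.62, 0.53 and 0.43, but the labels do not say that letters share animals.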
